A study of Mus musculus with 504 samples.

Results

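The 37 genes of the mouse mitochondrial chromosome were followed in 335 sequencing libraries made from sorted mammary tumour cells. They are the genes whose symbol begins with mt-, 37 of the 55450 in the count table, and they comprise 13 mRNAs, 2 rRNAs and 22 tRNAs. All 37 had at least 1 read in these libraries. The question was how much of the RNA counted in each sorted population came from the mitochondrial genome, and whether its mRNAs, rRNAs and tRNAs moved together.

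Mitochondria keep a small circular genome whose mRNAs encode core subunits of the respiratory chain. Complex I takes electrons from NADH, complex III passes them to cytochrome c, complex IV hands them to oxygen, and complex V makes ATP. Most of the genes lie on 1 strand and are transcribed as long precursors, from which the tRNAs are cut out so that the mRNAs and rRNAs between them are released. In single-cell work a large mitochondrial share of the counts is widely used as a mark of damaged or dying cells.

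The mice carried MMTV-PyMT, an oncogene driven in mammary epithelium that gives rise to breast tumours, together with MMTV-Flpo, the RC::FrePe colour reporter and a tamoxifen-inducible Cre. Cre was expressed from Tnc (Tnc-CreERT2, the Tnc line below) or from Cdh2 (Cdh2-CreERT2, the Cdh2 line), so the GFP colour records past expression of Tnc or Cdh2 in cells in which Flpo had acted. Tamoxifen (2 mg, 2 times per week) was begun in week 9 in every animal and went on until the tumours were collected, at an age of 13 to 14 weeks. Cells were sorted as pools of 5 cells and sequenced by Smart-seq2 with paired reads of 51 bases. The gates of the Tnc line were P18 (mCherry high, EpCAM high), P17 (mCherry positive, EpCAM high), P05 (mCherry positive, EpCAM negative), P22 (positive for both colours, EpCAM high), P09 (GFP high, EpCAM medium), P16 (GFP positive, EpCAM medium), P10 (GFP positive, EpCAM low) and P15 (GFP positive, EpCAM negative). EpCAM is a surface protein of epithelial cells. The series text lists the gate of P09 under another population number, and the gate given here is that of the sample labels. In the Cdh2 line P18, P15 and P05 were used and P17 was not analysed here. The source label calls the material cell lines, while the growth protocol says that the cells came straight from tumours. Each line had 5 animals, which are the replicates, and the passed libraries of 1 population in 1 animal were added up, giving 43 sums.

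Of 504 wells, 335 libraries passed the submitters' quality call, 152 failed it and 17 were empty wells. The sources used here do not state the criteria of that call. Passed libraries held 313655 to 27849014 counts. The Tnc line gave 55 passed libraries in P18, 50 in P22, 48 in P09, 32 in P05, 26 in P16, 25 in P10, 12 in P15 and 11 in P17, and the Cdh2 line gave 50 in P18, 16 in P15 and 10 in P05, the last from 1 animal. Of the 43 sums, 2 rest on 1 library each, Tnc P15 of animal TENA2524 with 508631 counts and Tnc P16 of TENA2483. Of the Tnc animals, 4 were sequenced on the first lane, and TENA2524 shared the second with all Cdh2 animals, so line and lane largely coincide.

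The labels were checked against marker genes. The 8 epithelial markers summed to 7623 to 26357 CPM (a gene's reads scaled to the same library total in every sum) in Tnc P18 and to 28.1 to 283 CPM in Tnc P15, where Cdh1, Cldn4 and Cldn7 were at 0. The 11 macrophage and leukocyte markers summed to 5.85 to 39.9 CPM in Tnc P18 and to 3060 to 13313 CPM in Tnc P15, and all 12 passed Tnc P15 libraries held Ptprc at 10 CPM or more. In Tnc P05 the leukocyte markers ran from 20.8 to 7632 CPM and the 8 fibroblast markers from 12.9 to 14027 CPM. The P05 sum of TENA2517, which had the largest mitochondrial share of that population, had the least of the fibroblast markers (12.9 CPM) and the most of the epithelial ones (1798 CPM), and that of TENA2462 had 467 CPM of 4 muscle markers. The 7 lymphocyte markers reached 1065 CPM in 1 P15 sum, and the pericyte, endothelial, adipocyte and red cell lists stayed at or under 274 CPM in all 43 sums. Tnc P10 was uneven too: its sum of TENA2517 had 10400 CPM of the leukocyte markers and 74.0 CPM of the epithelial ones, and that of TENA2483 had 233 CPM of leukocyte and 162 CPM of lymphocyte markers, with 4 of the 25 P10 libraries holding Ptprc. In the Cdh2 line the leukocyte markers summed to 7.00 to 25.2 CPM in P15, with Ptprc at 0, and to 11.3 to 616 CPM in P18. The epithelial markers summed to 101 to 303 CPM in Cdh2 P15. The single Cdh2 P05 sum had 1943 CPM of leukocyte and 3285 CPM of fibroblast markers. The part of cells with such markers in the values of Tnc P15, P05 and P10 below was tested only by leaving out the libraries that held Ptprc. That removes all of Tnc P15, and it does not select on the fibroblast markers.

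Several mitochondrial genes have near-identical copies in the nuclear genome, and the copies decide how the counts of those genes can be read. On chromosome 1, 7 neighbouring unprocessed pseudogenes lie in the order of their mitochondrial counterparts, on the minus strand between 24611535 and 24616197 (GRCm38, GENCODE M21). They are Gm29216 (the last 492 bases of mt-Co1), Gm28661 (mt-Co2), Gm10925 (mt-Atp6), Gm28437 (mt-Co3), Gm28438 (mt-Nd3), Gm10222 (mt-Nd4l) and Gm28439 (the first 876 bases of mt-Nd4). Aligned base by base, 5 of the 7 had 0 differences from the gene. The following stretches, each as long as 1 read, were taken from the middle of 4 genes of the mitochondrial chromosome and occur letter for letter in the copies Gm28661, Gm10925, Gm28437 and Gm10222.
mt-Co2, chrM:7330-7380, plus strand: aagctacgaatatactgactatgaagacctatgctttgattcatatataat
mt-Atp6, chrM:8242-8292, plus strand: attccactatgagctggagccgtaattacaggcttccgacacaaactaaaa
mt-Co3, chrM:8974-9024, plus strand: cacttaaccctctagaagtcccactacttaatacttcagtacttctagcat
mt-Nd4l, chrM:10000-10050, plus strand: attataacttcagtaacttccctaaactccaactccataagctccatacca

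The other 2 copies differ from the gene at a few bases near the start of the copy. In the lines below the capitals mark the differing bases. Counted from base 1 of mt-Co1, the substitutions are T1056A, C1057T, A1059G, A1060G, C1062A and A1066T, and counted from base 1 of mt-Nd3 the substitution is T3C.
mt-Co1, chrM:6381-6408, plus strand: ggTCtAAcCggaAttgttttatccaact
Gm29216, chr1:24616170-24616197, minus strand: ggATtGGcAggaTttgttttatccaact
mt-Nd3, chrM:9459-9486, plus strand: atTaacctgtacactgttatcttcatta
Gm28438, chr1:24613092-24613119, minus strand: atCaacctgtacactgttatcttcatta

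Reads were divided very unevenly between gene and copy. In the 335 passed libraries mt-Co2 held 11347 reads and its copy 3816662, which is 99.7% of the pair. The copy of mt-Atp6 held 7195110 reads against 21555, and the copy of mt-Co3 held 8246944 against 17710. The sequences of mt-Nd4l and mt-Nd4 lay on the opposite side: Gm10222 held 3156 reads against 974256 in mt-Nd4l, and Gm28439 held 5453 against 2450923 in mt-Nd4. The mt-Co1 and mt-Nd3 pairs were split more evenly, with 46.1% and 51.9% of the reads in the copy. In all, the 7 copies held 25657753 reads beside 45324078 in the 37 mitochondrial genes. The sources used here do not state how a read that fits both places was counted, and the cause of the uneven split was not tested. The table's levels of mt-Co2, mt-Co3, mt-Atp6 and, in part, mt-Co1 and mt-Nd3 can therefore not be read as their transcript levels. A comparison of these genes with others below holds for the deposited counts only. Of 2 further pseudogenes on chromosome 2, Gm13340 held 939296 reads and Gm13341 held 218912. Of the read-long stretches of Gm13340, 26.9% occur in mt-Co1, and of those of Gm13341, 35.4% occur in mt-Co2.

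**Figure D1:**
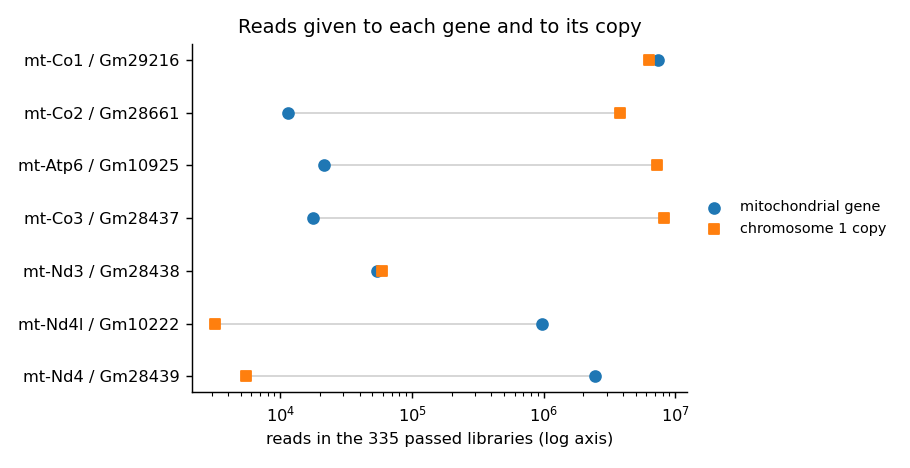
Reads in the 335 passed libraries given to each of 7 mitochondrial genes (circles) and to its copy on chromosome 1 (squares), on a log axis. For mt-Co2, mt-Atp6 and mt-Co3 the copy holds over 99% of the reads, for mt-Nd4l and mt-Nd4 under 1%.

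On the mitochondrial chromosome 2 pairs of neighbouring mRNA genes overlap, and they are shown because a read in the overlap belongs to both. The 204-base mt-Atp8, which encodes a small subunit of complex V, shares its last 43 bases, in capitals below, with the start of mt-Atp6. The 297-base mt-Nd4l, a complex I subunit, shares its last 7 bases, also in capitals, with mt-Nd4.
mt-Atp8, chrM:7766-7969, plus strand: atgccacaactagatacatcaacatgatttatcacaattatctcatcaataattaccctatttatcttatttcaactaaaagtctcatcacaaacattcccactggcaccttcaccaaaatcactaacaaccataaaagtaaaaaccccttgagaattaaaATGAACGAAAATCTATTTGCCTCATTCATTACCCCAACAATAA
mt-Nd4l, chrM:9877-10173, plus strand: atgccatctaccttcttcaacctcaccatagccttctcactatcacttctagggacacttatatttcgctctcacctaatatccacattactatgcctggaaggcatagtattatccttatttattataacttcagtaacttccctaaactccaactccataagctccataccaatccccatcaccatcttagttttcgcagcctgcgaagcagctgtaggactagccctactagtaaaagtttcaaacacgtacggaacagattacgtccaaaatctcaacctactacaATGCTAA
No stretch of read length from mt-Atp8 occurred in the 7 copies, but the gene lies in the gap between mt-Co2 and mt-Atp6 (230 bases, against 233 bases between their copies), and the letters of that stretch of chromosome 1 were not read.

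The 2 rRNAs of the mitochondrial ribosome differed widely in level. In Tnc P18, mt-Rnr2 (the 16S rRNA of the large subunit) had 14142, 10758, 10695, 9396 and 12174 CPM in animals TENA2462, TENA2483, TENA2517, TENA2524 and TENA2560. Its mean of 11433 ± 1806 CPM (SD, n = 5), or 7227 CPM per kb of gene, was the highest level of the 37 genes per length, without the reads given to the copies. The 12S rRNA of the small subunit, mt-Rnr1, had 369, 296, 377, 291 and 418 CPM in the same animals, or 367 CPM per kb. Their ranges did not overlap. The mitochondrial ribosome holds 1 molecule of each, and whether the counts follow the amounts of the 2 rRNAs was not tested.

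Among the mRNAs, mt-Cytb (complex III, its only mitochondrially encoded subunit) was highest in Tnc P18 by the reads given to the mitochondrial genes. That order leaves out the copies. Gm10925 (of mt-Atp6), Gm28437 (of mt-Co3) and Gm29216 (of mt-Co1) averaged 6607, 6605 and 8080 CPM per kb there, each above mt-Cytb. mt-Cytb had 3723, 4496, 6051, 3801 and 7682 CPM in the 5 animals, a mean of 4503 CPM per kb. Second was mt-Co1 (the catalytic subunit of complex IV) with 4108, 3869, 4718, 4278 and 5725 CPM, a mean of 2938 CPM per kb, counted without the reads given to its copy. The animals' ranges of mt-Cytb and mt-Co1 overlapped.

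The 7 complex I mRNAs spread widely per length. mt-Nd1 averaged 2321, mt-Nd4l 1955 and mt-Nd4 1077 CPM per kb in Tnc P18, while mt-Nd5 averaged 430, mt-Nd2 163, mt-Nd6 153 and mt-Nd3 91.9. mt-Nd4l and mt-Nd4, which leave the precursor as 1 mRNA, averaged 581 ± 107 and 1484 ± 274 CPM (n = 5). mt-Nd4l had 480, 539, 617, 517 and 749 CPM and mt-Nd4 had 1287, 1359, 1655, 1240 and 1880 CPM in the 5 animals, and both were highest in TENA2560. mt-Nd6, the only mRNA on the minus strand (13552 to 14070), had 63.5, 99.2, 79.0, 58.0 and 96.3 CPM.

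The counts of the complex V mRNAs were low in every animal. In Tnc P18 mt-Atp8 had 7.99, 8.82, 3.82, 2.96 and 9.15 CPM and mt-Atp6 had 16.9, 18.0, 10.2, 7.20 and 19.2 CPM. Both were low in TENA2517 and TENA2524. For mt-Atp6 nearly all reads of the shared sequence stood in the copy Gm10925, which had 2989 to 6924 CPM in the same animals.

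The 22 tRNAs together made up 0.479 ± 0.023% of the mitochondrial counts in Tnc P18 (n = 5), and mt-Ty, the tyrosine tRNA, held most of them. mt-Ty had 151166 reads in the passed libraries and averaged 92.5 ± 12.1 CPM in Tnc P18, against 4.51 ± 1.13 CPM for mt-Tc, 4.45 ± 1.23 for mt-Tn, 4.07 ± 0.87 for mt-Ta and 3.79 ± 0.89 for mt-Tl1. At the other end mt-Tk had 2 reads in all and mt-Td 26. The sequences of the most and the least counted tRNA are of like length. On the chromosome 1 base separates mt-Ty from mt-Co1, which begins at base 5328 on the plus strand. Whether the reads counted for mt-Ty came from the tRNA itself was not tested.
mt-Ty, chrM:5260-5326, minus strand: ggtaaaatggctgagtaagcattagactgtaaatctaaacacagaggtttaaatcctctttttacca
mt-Tk, chrM:7700-7764, plus strand: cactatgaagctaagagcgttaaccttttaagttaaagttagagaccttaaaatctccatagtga

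The share of all counts that fell in the 37 genes differed between the 8 Tnc populations. It was highest in P17, where the sums of TENA2517, TENA2524 and TENA2560 had 4.70%, 5.4% and 6.79%. In P05 the 5 animals had 2.74%, 2.42%, 4.92%, 4.30% and 3.64%, and in P18 they had 2.73%, 2.50%, 2.75%, 2.23% and 3.28% (in the order TENA2462, TENA2483, TENA2517, TENA2524, TENA2560). All 3 P17 sums lay above all 5 of P18, while P05 and P18 overlapped. These shares, and those below unless stated, leave out the reads given to the copies. With the 7 copies counted the mean share was 9.16% in P17 (n = 3), 5.47% in P05 and 4.31% in P18 (n = 5 each).

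The remaining populations lay lower or near P18. P22 had 1.93%, 1.86%, 1.58%, 2.07% and 2.12% and P09 had 1.41%, 1.59%, 1.66%, 0.959% and 2.19% in the same 5 animals. P16 had 2.05%, 2.14%, 2.67% and 3.11% and P10 had 1.48%, 2.87%, 1.99% and 0.871% in TENA2462, TENA2483, TENA2517 and TENA2524. P15 had 1.15%, 2.33% and 0.975% in TENA2483, TENA2517 and TENA2524. All sums of P09 and P22 lay below the lowest of P18, while P10, P15 and P16 overlapped it. TENA2524 was the lowest animal of P18, P09, P10 and P15 and the highest of P16.

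**Figure D2:**
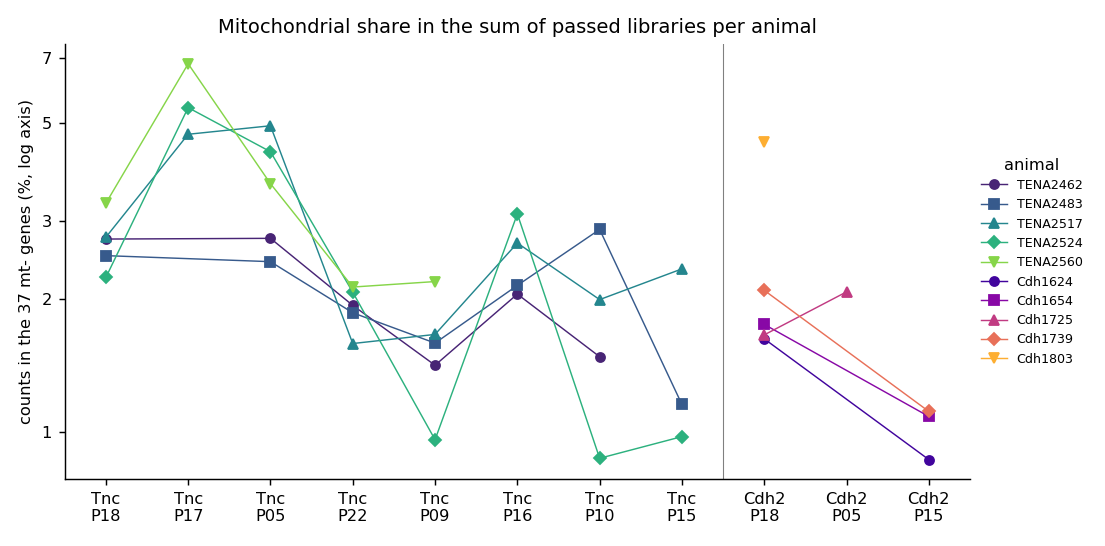
Percent of all counts in the 37 mitochondrial genes in the sum of passed libraries of each animal (points, joined within an animal) by line and population, on a log axis. The 3 sums of Tnc P17 lie at 4.70% to 6.79%, and the 5 sums of Tnc P09 at 0.959% to 2.19%.

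A permutation of the population labels within each animal (100000 draws, 34 sums of 5 animals) gave p = 4e-05 for a difference among the 8 populations (0.00012 after Benjamini-Hochberg adjustment over 3 such tests). The populations sorted for GFP alone (P09, P16, P10, P15) had a share 0.536 times that of the populations sorted for mCherry alone (P18, P17, P05), a log2 difference of -0.90, permutation p = 0.00023 (adjusted 0.000345). The difference was -0.69 within the animals of the first lane (permutation p = 0.00106), -0.74 without the libraries that held Ptprc (p = 0.00387 by permutation) and -0.76 without P17 (p = 0.00065 by permutation). The EpCAM-negative populations (P05, P15) differed from the EpCAM-positive ones by 0.15 on the log2 scale, permutation p = 0.605. P05 lay above and P15 below P18, so the EpCAM-negative gates did not go 1 way. A share of counts also moves with the RNA of all other genes, and in pooled cells fewer mitochondria-rich cells and less mitochondrial RNA per cell cannot be told apart.

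Each population was then set against P18 within animals. These comparisons share the P18 sums, and no exact sign-flip test over 5 or fewer animals can go below p = 0.0625. P09 was lower than P18 in 5 of 5 animals, with a mean log2 ratio of -0.83 ± 0.26 (SD, a ratio of 0.563, exact p = 0.0625). P22 was lower in 5 of 5 animals, at -0.49 ± 0.26 (ratio 0.711, exact p = 0.0625). P17 was higher in 3 of 3 animals, at 1.03 ± 0.25 (ratio 2.05, exact p = 0.25, the smallest that 3 animals allow). For these 3 populations the difference was larger than its spread between animals.

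P15 was lower than P18 in 3 of 3 animals at -0.85 ± 0.53 (exact p = 0.25), also more than its spread, and with the 13 mRNAs alone the difference was -1.46. P10 was lower in 3 of 4 animals at -0.63 ± 0.66 (exact p = 0.25; -0.33 without libraries holding Ptprc) and P05 higher in 4 of 5 at 0.38 ± 0.48 (exact p = 0.1875), differences that were smaller than or close to their spread. P16 differed by -0.05 ± 0.38 (exact p = 0.875, 3 of 4 animals lower). Set against P05 in place of P18, P15 had a ratio of 0.371, a log2 ratio of -1.43 ± 0.62, lower in 3 of 3 animals (exact p = 0.25). Adjusted over the 9 paired comparisons, p was 0.281 for all but P16, where it was 0.875.

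Gene by gene, a model over all 33768 genes that passed a filter on low counts (edgeR's quasi-likelihood test with the animal as a block) took in 36 of the 37 members, all but mt-Tk. A gene is called below an adjusted p of 0.05 (Benjamini-Hochberg). Between P15 and P18, 0 of the 36 were called, against 0.729% of all genes (0.198% higher and 0.53% lower). Between P05 and P18 again 0 were called, against 0.545% of all genes (0.352% higher and 0.192% lower). The counts were 0 against 0.00296% in P10 and in P16, and 0 against 0% in P09, P22 and P17. Counts were simulated for P05 against P18 with the gene-wise spread of these sums, and genes of any kind above a low level were changed. The same test called 0 of 67 genes changed by 1 log2 unit, 0 of 67 changed by 2 and 40 of 66 changed by 4 (30335 genes). The changed genes were not chosen among the members, so these counts do not tell which change of a member could be found.

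The fitted changes of the members leaned to 1 side in most comparisons. In P09, 35 of 36 were lower than in P18, with a median log2 change of -0.97 beside -0.03 over all genes. In P22, 35 of 36 were lower, median -0.48 beside -0.01. In P17, 30 of 36 were higher, median 0.80 beside -0.40 over all genes. Unadjusted p was under 0.05 for 10 members in P09, 1 in P22 and 4 in P17 by the same edgeR test. The share of all genes at that unadjusted level was not taken. Such counts, here and below, therefore do not show whether the members exceed other genes.

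In P15, 31 of 36 members were lower than in P18, median -1.12 beside -0.61 over all genes, and 8 had an unadjusted p under 0.05. In P10 and in P16, 30 of 36 were lower, with medians of -0.64 and -0.34 beside -0.22 and -0.21, and 5 and 2 had an unadjusted p under 0.05. In P05, 25 of 36 were higher, median 0.47 beside -0.15, and 7 had an unadjusted p under 0.05. With edgeR's RLE size factors in place of TMM the median of all genes shifted by 0.43 in P15, 0.31 in P05, 0.33 in P10, 0.28 in P16 and 0.16 in P17. Relative to all genes the member medians were then -0.50 in P15, 0.85 in P05, -0.25 in P10, -0.09 in P16 and 1.28 in P17, each on the same side as with TMM. In P16 the sign of 11 of the 36 members changed with that scaling, in P10 that of 6, and in the other comparisons with P18 that of 2 or 3, among them both rRNAs in P15. DESeq2, an alternative count model, called 16 of the 36 members in P05, all higher, beside 14.6% of all genes. It called 4 in P17, all higher, beside 5.28%, and 2 in P15, mt-Cytb lower and mt-Ta higher, beside 16.8%. In P09, P22, P10 and P16 it called 0 members, beside 2.48%, 2.45%, 6.57% and 4.87% of all genes.

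**Figure D3:**
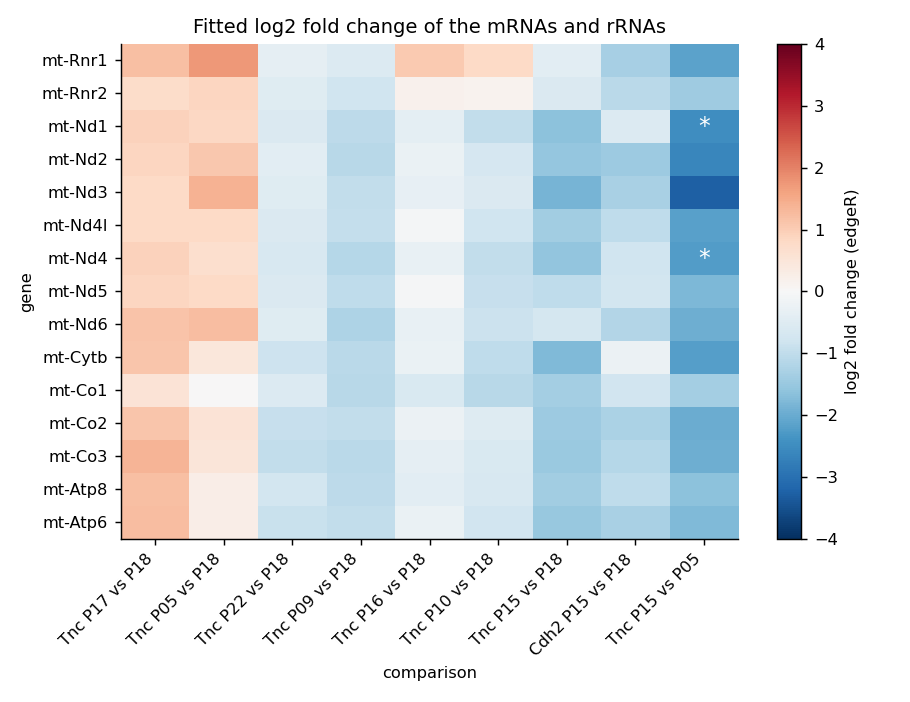
Fitted log2 fold change (colour) of the 13 mRNAs and 2 rRNAs in 9 comparisons, with an asterisk where edgeR's adjusted p was below 0.05. mt-Nd1 and mt-Nd4 in Tnc P15 against P05 carry the asterisks.

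Between P15 and P05 of the Tnc line, both EpCAM negative, 2 of 36 members were called, both lower in P15, beside 0.136% of all genes in either direction (0.0148% higher and 0.121% lower). mt-Nd1, a membrane subunit of complex I (2751 to 3707 of the mitochondrial chromosome, plus strand), had 846, 972 and 454 CPM in the 3 animals of P15. In the 5 animals of P05 it had 2074, 2212, 3694, 4244 and 4072 CPM, so that the groups did not overlap. Its fitted log2 change was -2.48 ± 0.50 (SE), edgeR adjusted p = 0.0289.

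mt-Nd4, another membrane subunit of complex I (10167 to 11544, plus strand), had 517, 854 and 379 CPM in P15. It had 1249, 1322, 2797, 2627 and 1969 CPM in P05, again without overlap. Its log2 change was -2.24 ± 0.47, edgeR adjusted p = 0.0417. The copies Gm10925 (of mt-Atp6) and Gm28661 (of mt-Co2) were lower too, by -2.17 and -2.19 (edgeR adjusted p = 0.0330 and 0.0496). Of the 36 members 33 were lower, median -1.70 beside -0.58 over all genes, and 16 had an unadjusted p under 0.05.

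Neither call held without 1 of the animals TENA2462, TENA2517, TENA2524 or TENA2560, where 0 members were called, and 0 were called on the first lane alone. Without Cdh1624 or Cdh1725, animals of the other line that share the estimate of the spread, 4 were called, as with RLE size factors (0.24% of all genes). With sums of 3 or more libraries only, which leaves out the P15 sum of TENA2524, the test called mt-Nd1, mt-Cytb and mt-Nd3 but not mt-Nd4. The share of all genes called with 1 animal left out or with these sums is not given. DESeq2 called 19 members, 17 lower and 2 higher (mt-Ta and mt-Tn), beside 13.3% of all genes. The 12 passed P15 libraries all hold Ptprc, so P15 could not be compared without them.

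In no comparison did the other members pass the test, but the size of their changes differed by class. Between P15 and P18 the 13 mRNAs had a median log2 change of -1.48, with mt-Cytb at -1.76 ± 0.48 (edgeR adjusted p = 0.0790), mt-Nd1 at -1.64 ± 0.48 and mt-Nd4 at -1.56 ± 0.45. The rRNAs mt-Rnr1 and mt-Rnr2 were at -0.41 ± 0.59 and -0.56 ± 0.40. mt-Cytb had 1995, 2252 and 515 CPM in P15, each below the lowest P18 animal. mt-Rnr2 had 5256, 13893 and 7021 CPM, which overlapped P18.

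Between P05 and P18, mt-Rnr1 had the largest fitted change of the mRNAs and rRNAs. mt-Rnr1 had 902, 551, 1708, 908 and 843 CPM in the 5 animals of P05, all above the highest P18 animal, a log2 change of 1.74 ± 0.49 (edgeR adjusted p = 0.0885). mt-Rnr2 had 16080, 11285, 26268, 18004 and 14548 CPM, a change of 0.85 ± 0.33 (adjusted p = 0.246 by edgeR). The 13 mRNAs had a median of 0.68, from 1.39 ± 0.60 for mt-Nd3 to 0.01 ± 0.39 for mt-Co1. With RLE size factors mt-Rnr1 and mt-Rnr2 passed the test in P05 (edgeR adjusted p = 0.0263 and 0.0411), as did 0.684% of all genes.

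Ratios within the mitochondrial counts do not depend on nuclear RNA or on the scaling, and 4 of them were tested among the Tnc populations. The log2 ratio of the 2 rRNAs to the 13 mRNAs averaged -0.65 in P17, -0.35 in P18, -0.16 in P22, -0.03 in P09, 0.06 in P05, 0.36 in P16, 0.68 in P15 and 0.80 in P10. Permuting populations within animals gave an adjusted p of 0.00972 over the 4 ratios, 0.0632 without TENA2462 and 0.121 without TENA2517. Within animals the ratio was higher than in P18 in 4 of 4 animals of P10 (by 1.07 ± 0.32, exact p = 0.125, the smallest possible, and by 1.04 ± 0.31 without libraries holding Ptprc) and 5 of 5 of P05 (by 0.40 ± 0.36, exact p = 0.0625). As shares, rRNA made up 43.9 ± 5.74% of the mitochondrial counts in P18 (n = 5) and 63.0 ± 8.19% in P10 (n = 4). These ratios and shares leave out the copies. With the copies added to the mRNAs the log2 ratio averaged -1.39 in P18 and -0.22 in P10, so rRNA then lay below mRNA in both means. P10 was still above P18 in 4 of 4 animals, by 1.10 ± 0.27.

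The balance of complex I to complex IV mRNAs set P05 apart. Its log2 ratio averaged 1.08 ± 0.41 in P05 (0.42 to 1.54 over 5 animals) and 0.23 ± 0.16 in P18 (0.04 to 0.48). The other 6 Tnc populations averaged 0.19 to 0.53. The adjusted permutation p over the 8 populations was 0.00728 (0.0632 without TENA2462), and P05 was above P18 in 5 of 5 animals, by 0.85 ± 0.38 (exact p = 0.0625). The complex IV counts are almost all mt-Co1. In the mt-Co2 and mt-Co3 pairs the copy held 99.7% and 99.8% of the reads. With the copies added to their genes the log2 ratio averaged -1.04 in P05 and -1.58 in P18, so complex I then lay below complex IV in both. The P05 difference was 0.54 ± 0.18, again in 5 of 5 animals, and the adjusted permutation p was 0.0102. In P05 the leukocyte and fibroblast markers reached 7632 and 14027 CPM. Without libraries holding Ptprc the adjusted permutation p was 0.00232. Of the 32 passed P05 libraries, 7 held Ptprc and 16 held the fibroblast marker Col1a1 at 10 CPM or more. The part of cells with fibroblast markers in this ratio was not tested. The single P05 sum of the Cdh2 line had a ratio of 1.01.

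The share of mt-Nd6, which is made from the other strand, also differed among the populations at an adjusted permutation p of 0.0430. Its log2 ratio to the other 12 mRNAs averaged -6.88 in P05, -6.95 in P15 and -7.57 in P18. This difference did not hold with the copies counted (adjusted permutation p = 0.146) or on the first lane alone (0.0929 by permutation), nor without TENA2462, TENA2517 or TENA2560 (0.0632, 0.386 and 0.207). mt-Nd6 had 65.5, 83.6, 354, 146 and 197 CPM in P05, and the high value is that of TENA2517. The ratio of complex V to complex IV mRNAs gave an adjusted permutation p of 0.5. With the copies counted it was 0.0165 by permutation.

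**Figure D4:**
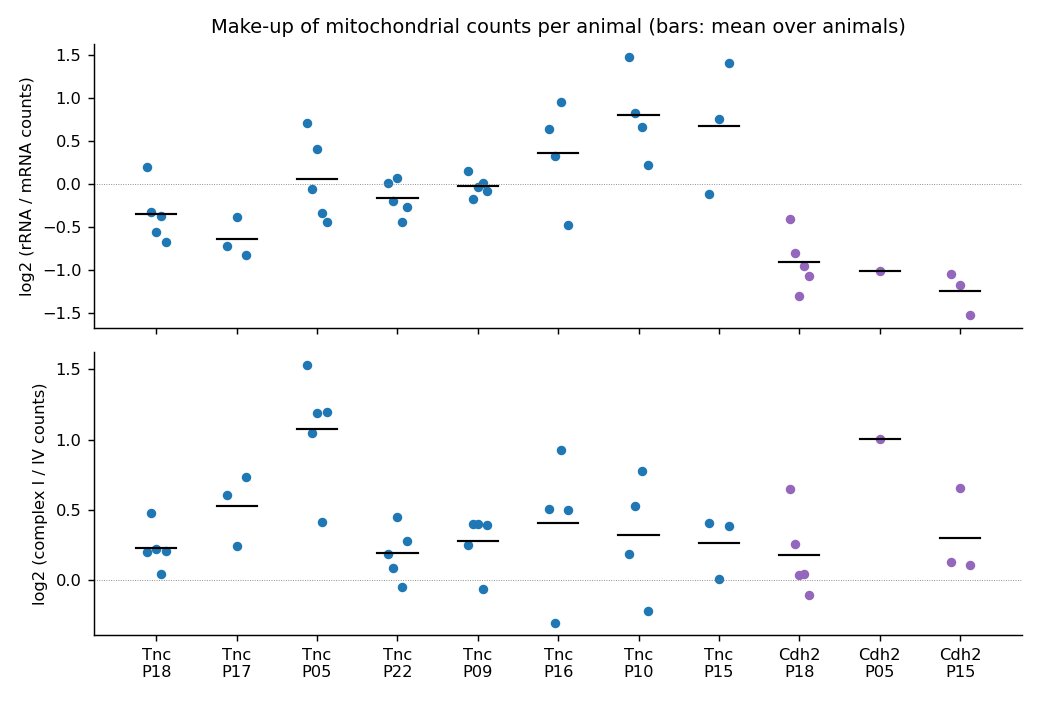
Log2 ratio of the 2 mitochondrial rRNAs to the 13 mRNAs (top) and of complex I to complex IV mRNAs (bottom) in each animal (points), with the mean over animals (bars), by line and population. The top ratio averages 0.80 in Tnc P10 and -0.65 in Tnc P17, the bottom one 1.08 in Tnc P05 and 0.23 in Tnc P18. Reads given to the copies are left out of both ratios.

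In the Cdh2 line the mitochondrial share was lower in P15 than in P18 of the same animals. P18 had 1.62%, 1.75%, 1.66%, 2.09% and 4.53% in Cdh1624, Cdh1654, Cdh1725, Cdh1739 and Cdh1803. P15 had 0.865%, 1.08% and 1.11% in Cdh1624, Cdh1654 and Cdh1739, all below the lowest P18 sum. The log2 ratio was -0.84 ± 0.13, lower in 3 of 3 animals (ratio 0.560, exact p = 0.25, the smallest possible). The single P05 sum, of Cdh1725, had 2.07%.

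By gene 0 of 36 members were called between Cdh2 P15 and P18, as for all genes (0%), and 4 had an unadjusted p under 0.05 by edgeR. DESeq2 called 0 of the 32 to which it gave an adjusted p, beside 7.82% of all genes. The median was -0.78 beside 0.00 over all genes, and 28 of 36 were lower. The rRNA to mRNA ratio was lower in Cdh2 P15 than in P18 in 3 of 3 animals, by -0.53 ± 0.14, while in the Tnc line it was higher in 3 of 3, by 1.10 ± 0.81. That difference between the lines was not tested. The leukocyte markers summed to 7.00 to 25.2 CPM in Cdh2 P15 and to 3060 to 13313 CPM in Tnc P15, and their part in it was not tested either. The test of the P15 to P18 change between the lines called 0 members by edgeR, beside 0.00888% of all genes, with 1 member at an unadjusted p under 0.05, and DESeq2 called 0 beside 10.4% of all genes.

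Between the lines P18 differed by -0.33 in log2 share (Cdh2 minus Tnc, 5 animals each, exact permutation p = 0.317), and without Cdh1803 by -0.60 (p = 0.00794 by exact permutation). P15 differed by -0.44 (3 animals each, exact permutation p = 0.40, smallest possible 0.10), and with the 13 mRNAs alone by 0.46. In P15 the lines also differed in leukocyte markers, as given above, and the part of such cells was not tested. By gene, 0 of 32 members were called in P18 and 0 of 29 in P15 by edgeR, beside 0% of all genes in both. In each, 1 member had an unadjusted p under 0.05. DESeq2 called 0 in both, beside 0.0173% of all genes in P18 and 10.3% in P15. With the lane as a term, a fit chosen after seeing the data that rests on 1 Tnc animal of the second lane, edgeR again called 0 in both. That animal, TENA2524, had 2.23% in P18, above every Cdh2 animal but Cdh1803. In P15 it had 0.975%, from 1 library, within the range of the Cdh2 animals. Among the mRNAs and rRNAs tested, the largest gap between the lines in P15 was that of mt-Rnr2, with 2681, 3217 and 2661 CPM in the Cdh2 line and 5256, 13893 and 7021 CPM in the Tnc line, which did not overlap (log2 change -1.96 ± 0.70, edgeR adjusted p = 0.273).

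The single libraries showed how far the quality call and the mitochondrial share go together. Passed libraries had a share of 0.401% to 9.51%, median 2.00%, and none was above 10%. The shares of single libraries leave out the reads given to the copies. Of the 152 failed libraries, 93 were above 10%, up to 67.1%, and 72 of these held 300000 counts or more. The 93 had a median of 2721 genes with a count, against 12713 in passed libraries. The other 59 failed libraries had a median of 18653 counts and 544 genes, and 5 of them held 300000 counts or more. Matched by animal and population (26 combinations), failed libraries had 4.60 times the share of passed ones, a log2 ratio of 2.20 ± 1.17, higher in 9 of 9 animals (exact p = 0.00391, the smallest possible). This is not independent of the call, whose criteria may include the share. Empty wells with a count numbered 11 of 17, and the fullest held 256675 counts with a share of 2.26%.

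High-share libraries were not spread evenly over the populations. Among Tnc libraries of 300000 counts or more, 31 of 42 in P17 were above 10%, in 4 of 4 animals, with a median of 30.9%. In P05 it was 20 of 54 (5 of 5 animals) and in P16 13 of 40 (4 of 5 animals). In P18, P10 and P15 it was 1 of 56, 1 of 28 and 1 of 13, and in P22 and P09 it was 0 of 50 and 0 of 48. In the Cdh2 line it was 3 of 53 in P18, 2 of 12 in P05 and 0 of 16 in P15. The populations with the most failed high-share libraries were thus P17 and P05, those with the highest share in the sums of passed libraries as well. The 11 passed P17 libraries lay between 3.40% and 9.24%, median 6.90%, up to the highest values that any passed library reached.

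**Figure D5:**
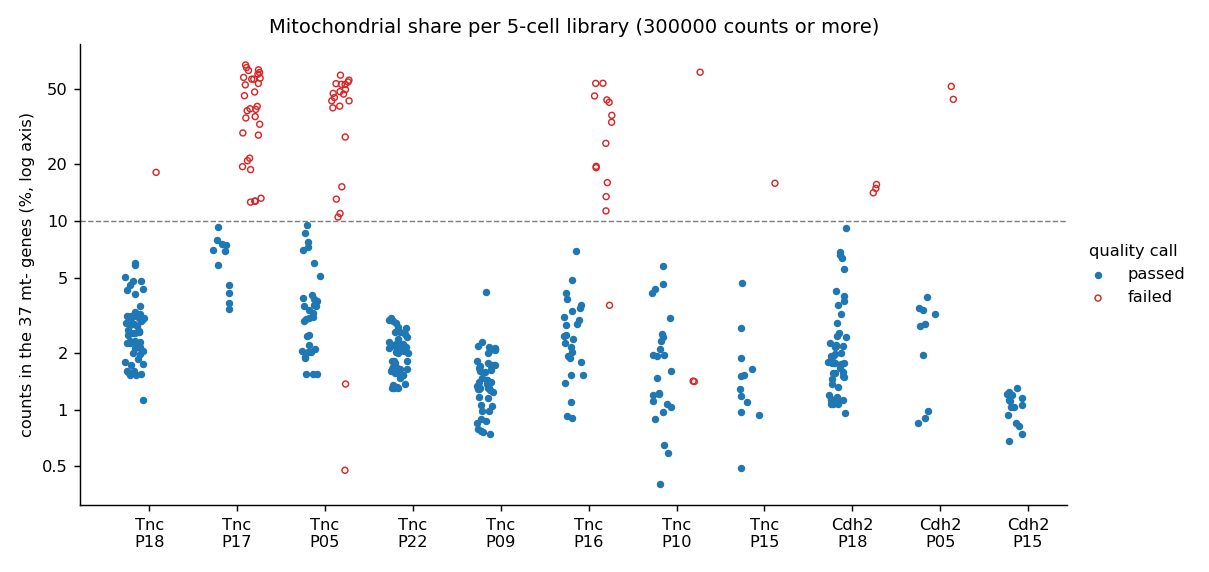
Percent of counts in the 37 mitochondrial genes of each 5-cell library with 300000 counts or more (log axis), by line and population, passed (filled) and failed (open), with a dashed line at 10%. No passed library lies above the line, and 31 of the 42 Tnc P17 libraries do.

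With failed libraries of 300000 counts or more included, the P17 difference from P18 was 2.91 on the log2 scale, that of P05 1.43 and that of P16 0.93, while P09 and P22 lay at -0.91 and -0.58. P15 then differed from P18 by -0.04. The difference among the 8 populations held with them (permutation p = 0.00011), as it did without P17 among the passed ones (0.00035 by permutation).

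Within a population, passed libraries with a larger share had fewer genes with a count. Over the 55 libraries of Tnc P18 (5 animals) Pearson's r was -0.66, over the 11 of P17 (3 animals) -0.80, over the 25 of P10 -0.69, over the 48 of P09 -0.13 and over the 50 of P22 -0.17. The share of the 7 chromosome 1 copies was larger where that of the 37 genes was, with r = 0.55 in Tnc P10, 0.65 in Tnc P16 and 0.86 to 0.99 in the other 9 populations of the 2 lines. Libraries of 1 animal share their source and both measures share the library's depth, so these values are descriptions.

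Nuclear genes that make, process and use mitochondrial RNA were read from 7 lists. Of 10 genes for mitochondrial transcription (such as Polrmt, the mitochondrial RNA polymerase, and Tfam, which packs mitochondrial DNA), 10 for mitochondrial DNA replication, 10 regulators of mitochondrial biogenesis and 13 quality control genes, none was called by edgeR in any of the 9 comparisons within lines, in which 0% to 0.729% of all genes were. The same held for the 18 tested of 19 processing and stability genes, such as Lrpprc and Slirp, which stabilise mitochondrial mRNAs. By edgeR their smallest adjusted p was 0.0754, in P05 against P18. At an unadjusted p under 0.05 by edgeR, none of the lists named so far had more than 3 members in any of the 9 comparisons. The transcription genes had 3 in P15 against P18, all lower.

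Of 18 nuclear subunits and assembly factors of complex IV, 1 was lower in P15 than in P18, beside 0.53% of all genes. It was Cox6a1, a nuclear-encoded subunit, with 281, 140 and 138 CPM in P15 and 403 to 688 CPM in P18, a log2 change of -1.55 ± 0.37 (edgeR adjusted p = 0.0419). At an unadjusted p under 0.05 by edgeR, 8 of the 18 were lower in P15 than in P18. The list's median was -1.30 beside -0.61 over all genes and -1.48 for the 13 mitochondrial mRNAs. In P05 the list had 0 called, 4 lower at an unadjusted p under 0.05 by edgeR, and a median of -0.87, while the mitochondrial mRNAs had 0.68. Of 5 RNAs retained in the nucleus, Meg3 was called higher in P05 than in P18 (edgeR adjusted p = 0.0354), beside 0.352% of all genes. The 5 P05 sums held 3341, 1333, 0, 149 and 5774 reads of it and the P18 sums 0 or 1 read, so no fold is given. The list's median in P05 was 1.60, and 4 of the 5 were higher at an unadjusted p under 0.05 by edgeR. Malat1, the most abundant of them, averaged 3416 ± 2148 CPM in P05 and 1555 ± 787 CPM in P18 (n = 5 each), and the animals overlapped.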

How the data were processed

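RNA-seq counts per gene were used for 504 wells of 5-cell pools. The authors deposited raw read counts per gene, made with STAR, SAMtools and featureCounts (Subread) on mm10 per the submitters' processing notes, with no versions given. The sources used here state neither how reads fitting 2 places were counted nor the criteria of the quality call. Gene names and positions came from GENCODE M21 (GRCm38), which held all 55450 identifiers, and sequences from its transcripts.

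Passed libraries were added up per animal and population, and CPM computed from these sums. The 36 members that passed filterByExpr were tested with edgeR 4.0.16 (R 4.3.3, limma 3.58.1): TMM scaling, quasi-likelihood test, animal as a block, p-values adjusted by Benjamini-Hochberg over 33768 genes. The animal names in the labels pair the samples. Between lines (17878 and 14028 genes) no block was fitted. Shares and ratios were tested by permutation (Python 3.11.15, numpy 2.4.6, scipy 1.17.1). DESeq2 1.42.0 was an alternative, its shares of all genes taken over those given an adjusted p, and edgeR was tested on simulated counts. Copies are annotated pseudogenes of which at least 50% of the 51-base windows occur in a mitochondrial gene. Named genes follow a rule by class: the 3 highest members per kb in Tnc P18, mt-Nd6, the overlapping pairs, the rRNAs, called members and the 5 leading tRNAs, plus called genes of the nuclear lists. Beyond it, mt-Cytb, mt-Nd3 and the copies were chosen after their values were seen. Members and lists were chosen with earlier results of these data known. Depth (313655 to 27849014 counts in passed libraries) limits the tRNAs and complex V counts.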

Additional observations from a re-analysis of the deposited data

Results flagged for a closer look

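In 140 groups of 4 or 5 animals, each the share, the level of 1 mRNA or rRNA, or a ratio in 1 population, an animal stood far from the nearest other one in 8 cases, where chance gives about 1 in 20. Animal Cdh1803 in P18 of the Cdh2 line accounts for 4 of them. Its mitochondrial share was 4.53%, with the next animal at 2.09%. Its mt-Cytb level was 12560 CPM (next 4982), its mt-Nd4 level 2687 CPM (next 1260) and its mt-Rnr2 level 13744 CPM (next 6783). In the Tnc line mt-Cytb stood at 6763 CPM in P16 of TENA2524 (next 2995), and mt-Nd3 at 154 CPM in P05 of TENA2517 (next 70.7). The log2 ratio of mt-Nd6 to the other mRNAs was -7.11 in P18 of TENA2483 (next -7.63). The log2 ratio of complex V to complex IV mRNAs was -9.32 in P22 of TENA2524 (next -7.95). Of the members, 0 were called in the test of a difference between the lines in the P15 to P18 change.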

How the results depend on the processing

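The difference in share among the 8 Tnc populations kept its side of 0.05 under all 14 alternatives (permutation p 1e-05 to 0.00119; 3e-05 to 0.00119 with 1 animal left out), as did the GFP against mCherry difference (log2 -1.02 to -0.69 with 1 animal left out). Counting the 7 copies, counting only members without a copy, including failed libraries of 300000 counts or more, and leaving out P17 were chosen after seeing the data. With failed libraries included the log2 share against P18 was -0.039 in P15, 1.43 in P05, 0.93 in P16 and 2.91 in P17, and between the lines in P15 -1.39. With the 13 mRNAs only it was -1.46 in Tnc P15, -0.66 in Cdh2 P15, 0.46 between the lines in P15, and -0.018 (sign turned) for EpCAM. Leaving out 1 animal gave -1.16 to -0.68 in P15, 0.24 to 0.48 in P05, -0.90 to -0.39 in P10, -0.23 to 0.07 in P16, -0.89 to -0.73 in P09, -0.59 to -0.42 in P22, 0.91 to 1.16 in P17, -1.61 to -1.07 for P15 against P05, and -0.91 to -0.80 in Cdh2 P15. It gave -0.60 (without Cdh1803, exact permutation p = 0.00794) to -0.23 between the lines in P18, -0.69 to -0.06 in P15, 0.03 to 0.31 for EpCAM and 1.95 to 2.38 for failed against passed libraries. For the 4 ratios leaving out 1 animal gave adjusted permutation p of 0.00708 to 0.121 (rRNA to mRNA), 0.0036 to 0.0632 (complex I to IV), 0.0233 to 0.814 (complex V to IV) and 0.00939 to 0.386 (mt-Nd6). Complex V to IV had 0.0233 on the first lane and 0.0165 with copies counted, mt-Nd6 0.0929 and 0.146. The cause of these changes was not tested.

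The animals pair the samples, so the reported fits hold the animal as a replicate block. Without that replicate block the Cdh2 P15 share differed by -1.08, 1 member was called lower in Tnc P15 against P18 (mt-Nd1) and 5 in P15 against P05, and no other call changed. DESeq2 called 2, 16, 4 and 19 members in P15, P05 and P17 against P18 and in P15 against P05, where it called 16.8%, 14.6%, 5.28% and 13.3% of all genes. RLE size factors called 2 in P05 and 4 in P15 against P05. In P05, 1 was called without Ptprc libraries, 1 on the first lane, and 2 with sums of 3 or more libraries. P15 against P05 had 0 to 4 with 1 animal left out (0 without TENA2462, TENA2517, TENA2524 or TENA2560), 0 on the first lane, and 3 with sums of 3 or more libraries, where mt-Nd4 was not called. In the other comparisons 0 members were called under every alternative run. Except for DESeq2 and RLE size factors, the share of all genes called in these alternatives is not given. Those counts therefore do not show whether the members exceed other genes. For the Cdh2 line no value on the first lane could be had. For Tnc P15 none could be had without Ptprc libraries, since no library of it remains. On counts simulated for Tnc P05 against P18, edgeR called 0 of 67 changes of 2 log2 units and 40 of 66 changes of 4. These were changes in genes of any kind, not chosen among the members.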
